A study of Arabidopsis thaliana with 38 samples.

Results

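A set of 5 genes of the gibberellin pathway was followed over every group of a root cell study in Arabidopsis thaliana: the receptors GID1A (AT3G05120, chromosome 3), GID1B (AT3G63010, chromosome 3) and GID1C (AT5G27320, chromosome 5), the F-box gene SLY2 (AT5G48170, chromosome 5, also named SNEEZY) and AT2G14900 (chromosome 2), a gene of the gibberellin-regulated GASA family. They were chosen by name, with earlier results of these data known, and each is read by 1 of the 22746 probe sets of the ATH1 array that are not controls: 259302_at, 251200_at, 246782_at, 248741_at and 266613_at. RNA of 5-day seedling roots was measured on 38 arrays in 13 groups, and 30 of the arrays hold cells of ecotype C24 sorted by J0571, a GAL4 enhancer trap line that marks the ground tissue with GFP. Of these, WT and SHR (3 arrays each) were labelled by a two-cycle protocol, and a further 3 WT and 3 SHR arrays by a one-cycle protocol. The one-cycle set also holds 6 lines of 3 arrays each in which, in the SHR background, UAS drives BLJ, NUC, MGP, JKD, SCR or IME in the J0571 cells. The remaining arrays are one-cycle and of ecotype Columbia: dissected meristematic zones of WT (2 arrays) and BLJ (3 arrays), and 3 arrays of WT cells of the same zone sorted by the cortex marker CO2. The labels call the arrays biological replicates. They do not state whether SHR and BLJ are mutants, how many transformants a UAS line comes from or whether replicates came from separate plants. The p-values therefore cover the spread between these arrays only. The labels mention protoplasted cells and tissue without saying which arrays are which.

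Gibberellin is a growth hormone that is bound by soluble GID1 receptors in the nucleus. The hormone-bound receptor holds DELLA proteins, which restrain growth, and hands them to an SCF ubiquitin ligase whose F-box subunit is SLY1 or its close relative SLY2, so that the DELLA protein is degraded. In the root the endodermis is the layer in which the gibberellin response is best known to set the rate of growth. SHR and SCR are GRAS family transcription factors that pattern the ground tissue, and BLJ, NUC, MGP, JKD and IME are zinc finger proteins of the BIRD family that work with them.

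The values are MAS5 signals, a linear brightness scale on which each array was scaled to the same trimmed mean. Levels are compared for each gene between groups and never between genes, since probe sets differ in how brightly they bind. Differences are in log2(signal + 16) with a standard error (SE), a scale that understates the change of dim genes, and a difference was called where limma's p, adjusted by the Benjamini-Hochberg method over all probe sets tested in that comparison, was under 0.05. In these bulk samples, fewer cells of a type and less RNA per cell cannot be told apart.

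Array medians ran from 55.8 to 177.5 and no pair of arrays was identical. The lower end of the signal was raised in 5 of the UAS lines: the 10th percentile was 3.23 to 3.43 on the one-cycle SHR arrays, 3.02 to 3.89 in WT and 3.6 to 3.98 in UAS-BLJ, but between 8.08 and 10.22 in the other 5 lines. The ratio of the 3′ to the 5′ control probe set of GAPDH, a sign of RNA integrity, differed as well (log2): it was 2.51 ± 0.59 (SD, n = 3) in two-cycle SHR against -0.01 ± 0.11 in two-cycle WT, and 7.25 ± 2.68 in the BLJ meristems. AT1G14580, the BLJ locus, read 411.4 to 488.3 in UAS-BLJ and 3.865 to 20.93 in one-cycle SHR. In the meristems it was low in both groups, at 2.221 to 15.75 in BLJ and 0.8209 to 9.49 in WT. JKD read 88.9 to 119 in the line labelled UAS-JKD and 174.9 to 257.3 in SHR, which goes against that label, and the probe sets of SHR, SCR, NUC, MGP and IME were not named here. Of the marker lists, 2 of 7 endodermis genes, 5 of 5 cortex genes and 1 of 6 epidermis and root hair genes could be read, and no stele or root cap gene.

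AT2G14900 was brightest in J0571 cells of WT and far lower in every other group. Its signal in WT was 4554, 4389 and 5255 with the one-cycle protocol and 3577, 5213 and 4788 with the two-cycle protocol. In SHR it was 117.4, 105 and 58.29 with the one-cycle protocol and 287.7, 235.2 and 189.4 with the two-cycle protocol. Every WT array therefore lay far above every SHR array under both protocols. The ratio of the group means was 50.6 in the one-cycle and 19.1 in the two-cycle set, and the differences were 5.48 ± 0.23 and 4.16 ± 0.26 (log2, SE). These sizes were known when the gene was chosen and are given without a test.

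**Figure D1:**
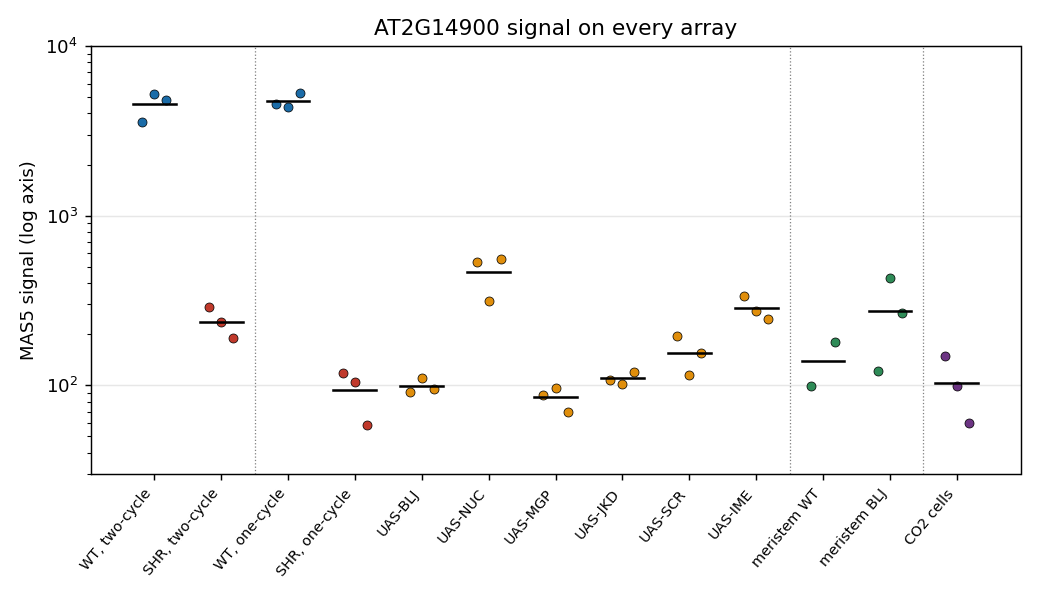
MAS5 signal of AT2G14900 (log axis) on each of the 38 arrays by group; points are arrays, bars are group means, and dotted lines part the two-cycle, one-cycle, meristem and CO2 sets. The 6 WT arrays of J0571 cells lie between 3577 and 5255, and no other array exceeds 556.4.

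The driven factors went with different levels of AT2G14900 in the SHR background. The low SHR level enters the WT minus SHR difference known when the gene was chosen. The p-values of its differences from SHR are therefore not free of that choice. In UAS-NUC it read 532.7, 311.9 and 556.4, above all 3 one-cycle SHR arrays, and the mean was 4.99 times that of SHR. This was a rise of 2.14 ± 0.23 (adjusted p = 1.16e-06), in a comparison in which 40.7% of the probe sets tested were called in either direction. In UAS-IME it read 334.2, 273.4 and 244.7, again above all SHR arrays. The rise there was 1.49 ± 0.23 (adjusted p = 8.56e-05), with 21.1% of probe sets called. UAS-SCR gave 195.8, 114.4 and 154.3, of which the lowest fell within the SHR range. Its rise of 0.66 ± 0.23 passed the test (adjusted p = 0.0219, with 47.7% of probe sets called), but missed it without SHR array 2_3, at 0.40 (adjusted p = 0.162), without UAS-SCR array 1 (0.105) or 3 (0.0626), and with the 2 groups fitted alone (0.0823).

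The other 3 lines did not differ from SHR by the test. AT2G14900 read 90.92, 111.1 and 94.73 in UAS-BLJ, 87.79, 96.61 and 69.89 in UAS-MGP, and 107.6, 101.3 and 120.4 in the line labelled UAS-JKD. All of these overlap the SHR arrays, and the differences were 0.11 ± 0.23, -0.09 ± 0.23 and 0.24 ± 0.23 (adjusted p = 0.834, 0.871 and 0.387). The 6 lines differed among themselves in the F test (F = 30.4, adjusted p = 3.66e-07), a test that 66.3% of all probe sets passed. UAS-NUC, UAS-MGP and UAS-IME all have the raised lower end of the signal (10th percentile 8.3 to 9.83, 8.08 to 8.74 and 8.31 to 9.53), and within them AT2G14900 was 1.44 ± 0.20 higher in UAS-NUC than in the mean of the other two (adjusted p = 4.62e-05, 17.7% of probe sets called). UAS-MGP minus the mean of UAS-NUC and UAS-IME was -1.90 ± 0.20 (adjusted p = 1.25e-06, 23.0% called). UAS-SCR and the line labelled UAS-JKD also have the raised lower end (8.7 to 10.22 and 8.62 to 9.78) but were left out of these contrasts. The part of the raised lower end in the differences from SHR was not tested further.

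No line reached the WT level. Against one-cycle WT the difference ran from -3.34 ± 0.23 in UAS-NUC through -3.99 in UAS-IME, -4.82 in UAS-SCR, -5.24 in the line labelled UAS-JKD and -5.37 in UAS-BLJ to -5.56 in UAS-MGP. The WT level was known when the gene was chosen, so these differences are given without a test. The WT mean was 10.1 times the mean of UAS-NUC and 55.8 times that of UAS-MGP. Ordered by mean signal over the 13 groups, 1 step separated groups whose arrays did not overlap, a count not made over all probe sets. It was that between two-cycle WT at 4526 ± 849 (SD, n = 3) and UAS-NUC at 467 ± 135. The 10 groups below UAS-NUC form an unbroken series of overlapping neighbours, from UAS-IME at 284 ± 46 down to UAS-MGP at 84.8 ± 13.6.

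The endodermis markers moved in part with AT2G14900, and their part in its differences was not tested. The summed signal of the 2 readable markers was 2443 to 3476 in one-cycle WT and 845 to 1164 in SHR, and 2008 to 6824 against 179.7 to 279.4 in the two-cycle set. AT2G39430 (DIR9), a dirigent family gene of the endodermis, was 3.05 higher in one-cycle WT than in SHR (adjusted p = 3.02e-07), while AT4G28100, the other one, was lower in WT, with a difference of -0.90 (adjusted p = 0.0105). In the two-cycle set AT4G28100 went the other way, at 355.5 to 435.5 in WT and 80 to 217.1 in SHR. In UAS-NUC and UAS-IME, the lines in which AT2G14900 rose most, the summed signal was 550.3 to 573.7 and 667.1 to 698.9, below that of SHR, and DIR9 differed from SHR by -0.28 and 0.17 (adjusted p = 0.493 and 0.727). Of the one-cycle SHR sum, AT4G28100 made up 606.2 to 850.6. In UAS-SCR, where the rise of AT2G14900 was smaller, DIR9 read 405.2 to 724.8 against 238.8 to 375.7 in SHR. The 5 cortex markers did not move together: in one-cycle WT against SHR 1 was higher, 2 were lower (AT1G62500 and AT1G62510) and 2 were not called. Their summed signal was 1195 to 1690 in WT, 3520 to 4052 in SHR, 1534 to 1994 in UAS-NUC and 2263 to 3080 in UAS-IME. In the two-cycle set it was 1268 to 2375 in WT and 500.1 to 1707 in SHR. The GAPDH log2 ratio also lay above that of SHR (-0.23 to 0.1), at 0.65 to 0.75 in UAS-NUC, 0.4 to 0.72 in UAS-IME and 0.66 to 1.16 in UAS-MGP, though not in UAS-BLJ (-0.12 to 0.09), and its part in the AT2G14900 values was not tested.

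GID1B, the second receptor, was brightest in CO2 cells and UAS-SCR and dimmest in WT meristems. In J0571 cells of one-cycle WT it read 539, 371.1 and 435.1, and in SHR 261, 155.4 and 276.7, so that the arrays did not overlap and the WT mean was 1.94 times that of SHR. The difference of 0.93 ± 0.33 was called (adjusted p = 0.0352), and GID1B was the single call among the 4 members other than AT2G14900, against 34.5% of all probe sets. It was not called without WT array 2_1 (adjusted p = 0.133), without WT array 2_3 (0.0755) or without SHR array 2_2 (0.175). In the two-cycle set the WT arrays read 367, 539.6 and 520.4 and the SHR arrays 750.1, 249 and 188.4, of which the first lies above all WT arrays. The difference there was 0.49 ± 0.48 (adjusted p = 0.46), and 1.06 (adjusted p = 0.0226) without SHR array 1. The 2 protocols' differences did not differ by the test (-0.45 ± 0.57, adjusted p = 0.554).

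Among the UAS lines, GID1B was highest with SCR driven. It read 642.7, 416 and 845.8 in UAS-SCR, all above the SHR arrays, and the mean was 2.75 times that of SHR. The rise of 1.38 ± 0.33 was called (adjusted p = 0.0028) and stayed called under every alternative tried. UAS-MGP lay at the other end, with 105.7, 229 and 130.6, overlapping SHR (-0.56 ± 0.33, adjusted p = 0.337) but below all 3 WT arrays. Against WT it was lower, with a difference of -1.49 ± 0.33 (adjusted p = 0.00192, with 33.6% of probe sets called). Against the mean of UAS-NUC and UAS-IME the UAS-MGP value was -1.07 ± 0.29 (adjusted p = 0.0129), which was lost without UAS-MGP array 1 (0.111) or array 3 (0.0706).

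In the other 4 lines GID1B was above the SHR mean without passing the test. UAS-NUC read 384.7, 254.9 and 495.5, and its difference from SHR was 0.67 ± 0.33 (adjusted p = 0.113), or 0.91 (adjusted p = 0.0372) without array 2. The line labelled UAS-JKD read 338.7, 221.7 and 556, with a difference of 0.60 ± 0.33 (adjusted p = 0.145), or 0.91 (adjusted p = 0.0454) without array 2. UAS-BLJ (332.6, 390.2 and 231.3) and UAS-IME (374, 286.2 and 230.2) differed from SHR by 0.44 ± 0.33 and 0.35 ± 0.33 (adjusted p = 0.471 and 0.473). All 4 lines overlapped both SHR and WT. The F test over the lines passed for GID1B (F = 6.96, adjusted p = 0.002).

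The root hair marker and the GAPDH ratio were higher in UAS-SCR and in the line labelled UAS-JKD than in SHR, and their part in the GID1B value was not tested. EXPA7, an expansin of root hairs, read 164.4 to 390.8 in UAS-SCR against 22.27 to 61.64 in SHR, a difference of 2.21 (adjusted p = 0.000995). In the line labelled UAS-JKD it read 291.9 to 518.5, and the GID1B difference of that line was 0.60. The GAPDH log2 ratio was 1.34 to 1.45 in UAS-SCR, 0.55 to 2.07 in the line labelled UAS-JKD and -0.23 to 0.1 in SHR.

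**Figure D2:**
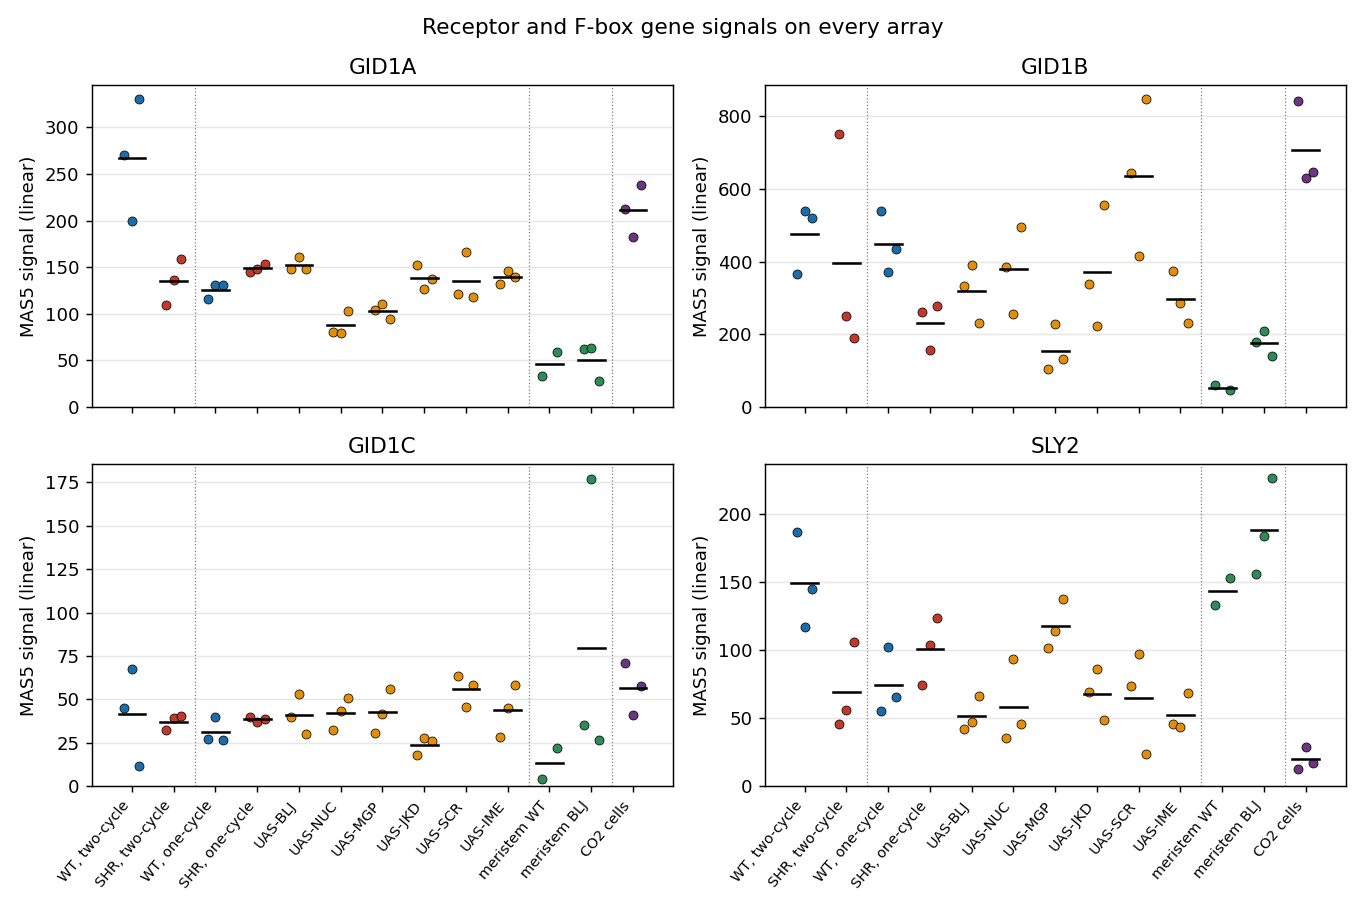
MAS5 signal (linear axes) of GID1A, GID1B, GID1C and SLY2 on each of the 38 arrays by group; points are arrays and bars group means. GID1B reads 642.7, 416 and 845.8 in UAS-SCR and 261, 155.4 and 276.7 in one-cycle SHR, GID1A is lowest in the meristems, and the 3 CO2 arrays are the lowest group mean for SLY2.

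GID1A, the first receptor, was within a narrow range in most J0571 groups and was lower in 2 of the UAS lines. One-cycle SHR read 145.2, 147.7 and 153.6, and UAS-NUC 80.28, 78.93 and 103.4, which is 58.8% of the SHR mean with no overlap. The difference of -0.68 ± 0.14 was called (adjusted p = 0.000765), also under every alternative tried. UAS-MGP read 104.1, 111 and 94.33, also below all SHR arrays, and its difference of -0.47 ± 0.14 was the single call in that line (adjusted p = 0.0331, with 9.07% of probe sets called). The GAPDH log2 ratio was above that of SHR in both lines, as given for AT2G14900, and its part in the GID1A values was not tested. The UAS-MGP call was lost without SHR array 2_1 (0.0752), 2_2 (0.0782) or 2_3 (0.103), without UAS-MGP array 1 (0.079) or 3 (0.122), without the filter (0.0542) and with the 2 groups fitted alone (0.0721).

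The other lines did not differ from SHR in GID1A by the test. UAS-BLJ read 148.5, 160.9 and 147.7, the line labelled UAS-JKD 152.8, 126.3 and 137.4, UAS-SCR 121, 166 and 117.8, and UAS-IME 132.4, 146.2 and 139.7. Their differences lay between -0.14 ± 0.14 in UAS-SCR and 0.03 ± 0.14 in UAS-BLJ (adjusted p of 0.397 to 0.933). UAS-IME shares the raised lower end of the signal with UAS-NUC and UAS-MGP. UAS-SCR and the line labelled UAS-JKD share it too but were left out of the next contrast. UAS-IME was 0.49 ± 0.12 above the mean of UAS-NUC and UAS-MGP (adjusted p = 0.0104, with 7.74% of probe sets called). That value was not called without UAS-IME array 2 (0.0672) or on these 3 groups alone (0.0692).

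Under the 2 protocols GID1A ran in opposite directions. In one-cycle WT it read 115.6, 130.8 and 131.2, below all SHR arrays, and the difference of -0.22 ± 0.14 was not called (adjusted p = 0.22). In the two-cycle set WT read 269.9, 200 and 330.4 and SHR 109.1, 136.4 and 158.8, so that WT was above SHR, with a mean 1.98 times as high. The two-cycle difference was 0.89 ± 0.26 (adjusted p = 0.0367), where 28.8% of probe sets were called and GID1C did not pass the filter on low values. It was lost without WT array 1 (0.111) or 3 (0.128), without SHR array 1 (0.0642) or 2 (0.0938), without the filter (0.0525) and in a fit blocked on replicate number (0.0696). The protocols differed in this difference, by 1.11 ± 0.28 (adjusted p = 0.0104), in a test that 36.6% of probe sets passed.

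SLY2 also differed between the protocols. Two-cycle WT read 186.9, 117.3 and 145.1 and SHR 45.57, 55.71 and 106.1, without overlap. The difference of 1.00 ± 0.32 passed narrowly (adjusted p = 0.0486) and was lost without any 1 of the arrays WT 1 (0.157), WT 2 (0.055), WT 3 (0.118), SHR 1 (0.0975) and SHR 2 (0.134). In the one-cycle set WT read 55.56, 102.6 and 65.53 and SHR 74.43, 104.1 and 123.6, which overlap (-0.38 ± 0.33, adjusted p = 0.386). The protocols' differences differed by 1.38 ± 0.42 (adjusted p = 0.0229). This call was lost without two-cycle WT array 1 (0.0566) and without one-cycle WT array 2_1 (0.0616) or 2_3 (0.0543) or SHR array 2_2 (0.053) or 2_3 (0.0612).

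For AT2G14900 the same difference between protocols was -1.31 ± 0.34, given without a test like the values it is made from, WT being far above SHR under both protocols. The higher GAPDH ratio of two-cycle SHR, which one-cycle SHR did not share (-0.05 ± 0.17), moved with these differences, and its part in them was not tested. With protocol and RNA quality both differing between the SHR groups, the 2 cannot be told apart.

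In the UAS lines SLY2 was below the SHR mean in all but UAS-MGP, and no difference from SHR was called. UAS-BLJ read 41.78, 46.78 and 66.13 and UAS-IME 45.34, 43.35 and 68.35, both below all SHR arrays, with differences of -0.78 ± 0.33 (adjusted p = 0.142) and -0.77 ± 0.33 (adjusted p = 0.0978). With only the compared groups in the fit, both passed (0.0119 and 0.0178). No member was called in UAS-BLJ, against 11.1% of probe sets.

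UAS-NUC read 35.61, 93.6 and 45.32 for SLY2, and its -0.71 ± 0.33 (adjusted p = 0.085) became -1.03 (adjusted p = 0.014) without array 2. UAS-SCR read 73.24, 97.08 and 23.49, a wide spread, with a difference of -0.64 ± 0.33 (adjusted p = 0.107) that became -0.95 (adjusted p = 0.0271) without array 2 and -0.81 (adjusted p = 0.045) after quantile normalization. The line labelled UAS-JKD read 68.89, 85.92 and 48.41 (-0.48 ± 0.33, adjusted p = 0.228). UAS-MGP was the exception, at 101.7, 114.2 and 137.7, within the SHR range or above it (0.21 ± 0.33, adjusted p = 0.76). Against the mean of UAS-NUC and UAS-IME it was 0.95 ± 0.28 higher (adjusted p = 0.0207), which was lost without UAS-NUC array 1 (0.0524) or UAS-MGP array 1 (0.0568) or 3 (0.107). The F test over the 6 lines did not pass for SLY2 (F = 2.70, adjusted p = 0.0687).

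GID1C, the third receptor, was not called against SHR in any group of J0571 cells. Its one-cycle arrays read 27.11, 39.6 and 26.28 in WT and 39.94, 37.01 and 38.69 in SHR, which overlap (-0.23 ± 0.22, adjusted p = 0.435). In the lines it read 39.58, 52.83 and 29.82 in UAS-BLJ, 32.4, 43 and 50.86 in UAS-NUC, and 30.59, 41.31 and 55.73 in UAS-MGP. UAS-IME gave 28.52, 44.73 and 58.45, so these 4 lines all overlapped SHR, with differences of 0.04 to 0.10 and SE of 0.22. The extremes were UAS-SCR, with 63.31, 45.6 and 58.13 above all SHR arrays, and the line labelled UAS-JKD, with 17.83, 27.4 and 25.88 below all of them.

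Neither extreme passed against SHR. The differences were 0.39 ± 0.22 (adjusted p = 0.142) in UAS-SCR and -0.47 ± 0.22 (adjusted p = 0.0806) in the line labelled UAS-JKD, the latter -0.80 (adjusted p = 0.00552) after quantile normalization. In that line no member was called, against 46.2% of probe sets. The F test over the lines passed for GID1C (F = 3.30, adjusted p = 0.0378) but did not with the 6 lines fitted alone (0.073), or with the replicate block (0.0653). It was also lost without 1 array in 7 of 18 cases: UAS-BLJ 1 (0.0513), UAS-JKD 1 (0.162), 2 (0.056) or 3 (0.0701), UAS-SCR 1 (0.0817) or 3 (0.0716), and UAS-IME 2 (0.0504). In the two-cycle set GID1C read 44.95, 67.67 and 11.79 in WT and 32.03, 39.03 and 40.09 in SHR, a spread in WT that encloses the SHR arrays. Its order over the 13 groups had no step between groups that do not overlap, a count not made over all probe sets.

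**Figure D3:**
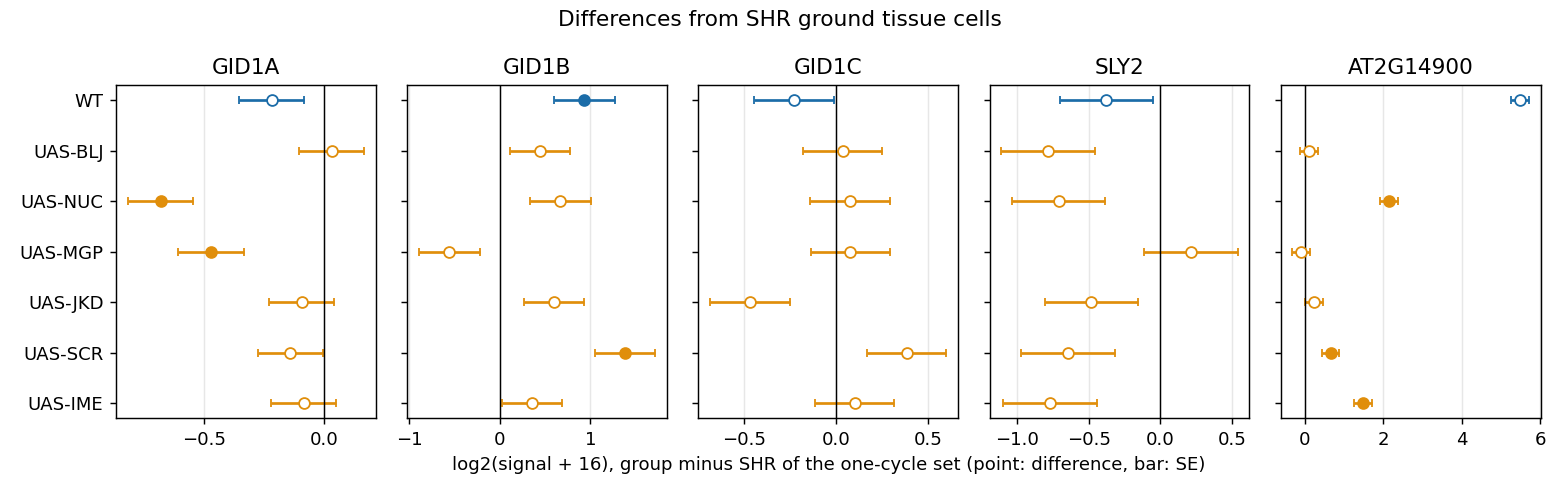
Difference of one-cycle WT and of each UAS line from one-cycle SHR in log2(signal + 16), with its SE, from the fit on 24 arrays; filled points were called at an adjusted p under 0.05, open points were not, and the WT point of AT2G14900 is open because it is given without a test. AT2G14900 is at 2.14 in UAS-NUC and 1.49 in UAS-IME, GID1B is at 1.38 in UAS-SCR, and GID1A is at -0.68 in UAS-NUC. All comparisons share the 3 SHR arrays.

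Against one-cycle WT, the lines differed little beyond AT2G14900 and the GID1B value of UAS-MGP. Apart from AT2G14900, given above without a test, no member was called in UAS-BLJ (35.0% of probe sets called), the line labelled UAS-JKD (31.3%) or UAS-IME (27.5%). In UAS-NUC, with 23.8% called, GID1A was also lower, with a difference of -0.46 ± 0.14 (adjusted p = 0.0163), which was lost without WT array 2_2 (0.057) or 2_3 (0.0601), without UAS-NUC array 1 (0.0711) and with the 2 groups fitted alone (0.148). In UAS-SCR, with 36.6% called, GID1C was higher, by 0.61 ± 0.22 (adjusted p = 0.0308), but by 0.32 (adjusted p = 0.255) after quantile normalization. That call was also lost without WT array 2_1 (0.0871) or 2_3 (0.103) or UAS-SCR array 1 (0.096) or 3 (0.0805). With the 2 groups fitted alone GID1C did not pass the filter on low values. The raised lower end of the signal in UAS-SCR (10th percentile 8.7 to 10.22, against 3.02 to 3.89 in WT) may matter for so dim a gene, and its part was not tested. These comparisons share the 3 WT arrays.

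The receptors and SLY2 were called in CO2 cells against J0571 cells of WT, in a comparison in which 57.3% of probe sets were called. AT2G14900 read 148.2, 99.67 and 59.69 in CO2 cells, 2.17% of the WT mean of J0571 cells (-5.39 ± 0.27). This is given without a test, since that WT level was known when the gene was chosen. SLY2 read 12.83, 28.81 and 17.26, below all 3 WT arrays of J0571 cells, and differed by -1.34 ± 0.27 (adjusted p = 0.00283). On its array it stood at percentiles 25.5, 38.5 and 30.7 in CO2 cells and at 45.9, 55.2 and 48.5 in WT. SLY2 thus passed the filter on low values through the WT arrays, where it is high, so its call depends on them. The receptors went the other way: GID1A read 212.7, 182.2 and 238.3, above all J0571 WT arrays of the one-cycle set (0.67 ± 0.18, adjusted p = 0.0118).

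GID1B read 840.6, 630.9 and 646.8 in CO2 cells, also without overlap. Its difference of 0.64 ± 0.20 (adjusted p = 0.0235) was lost without WT array 2_2 (0.0892) or 2_3 (0.0791) or CO2 array 1 (0.0802). GID1C read 71.08, 41.15 and 57.35, above the WT arrays, with a difference of 0.62 ± 0.24 (adjusted p = 0.0486). That call was lost without WT array 2_1 (0.124) or 2_3 (0.151) or CO2 array 1 (0.167) or 3 (0.119), and without the filter on low values. By percentile on its array, GID1C stood at 54.1, 43.6 and 50.4 in CO2 cells and at 33.4, 40.2 and 33.9 in WT. It passed the filter largely through the CO2 arrays, where it is high, so its call depends on them. Ecotype and root zone differ along with the marker and cannot be told apart from it. The GAPDH log2 ratio differed too, at 2.57 to 3.27 in CO2 cells and 0.15 to 0.49 in J0571 WT, and its part was not tested. DIR9 was lower in the CO2 cells, with a difference of -3.49 (adjusted p = 9.09e-05), and the summed endodermis markers read 302.3 to 565.3 there. Of the 5 cortex markers 2 were higher and 3 lower than in J0571 WT, and their summed signal was 1413 to 1850. AT1G62500, among the lower, read 12.58 to 158.2 in CO2 cells and 181.7 to 311.8 in J0571 WT. In the WT meristems it read 85.75 to 129.7, within the range of the CO2 cells. Against the WT meristems 4 of the 5 cortex markers were higher in CO2 cells and 1 was not called. The part of these markers in the differences was not tested.

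Against whole meristems of the same ecotype and zone, CO2 cells again read higher for each receptor. The WT meristems read 32.76 and 58.6 for GID1A, 59.73 and 46.47 for GID1B, and 4.172 and 21.82 for GID1C, all below the CO2 arrays. GID1B, at 13.3 times the meristem mean, differed by 3.38 ± 0.23 (adjusted p = 7.04e-06), GID1A by 1.90 ± 0.26 (adjusted p = 0.000295) and GID1C by 1.37 ± 0.33 (adjusted p = 0.00543), in a comparison in which 72.5% of probe sets were called. The GID1C value was 0.92 without meristem array 1. GID1C stood at percentiles 11.9 and 32.9 on the WT meristem arrays, so it passed the filter on low values through the CO2 arrays. Its call depends on that group, where it is high. SLY2 was brighter in the meristems, at 133.4 and 153.3, and the CO2 difference was -2.18 ± 0.27 (adjusted p = 0.00015). It stood at percentiles 62.5 and 65.5 on the meristem arrays and at 25.5, 38.5 and 30.7 on the CO2 arrays. SLY2 thus passed the filter through the meristem arrays, where it is high, and its call depends on them. AT2G14900, at 99.37 and 179.5 in the meristems, overlapped the CO2 arrays (-0.41 ± 0.37, adjusted p = 0.334). Sorting differs along with the cells and cannot be told apart from them, and the GAPDH log2 ratio was 2.86 in CO2 cells and 3.5 in the WT meristems.

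In the BLJ meristems no member was called against WT, where 2.72% of probe sets were. GID1B read 178.5, 209.7 and 140.4, above both WT arrays as deposited, where the difference was 1.47 (adjusted p = 0.0679). After the quantile normalization that the spread of array medians required, it was 0.60 (adjusted p = 0.515). SLY2 read 156.1, 183.8 and 226.4, also above both WT arrays as deposited, and its normalized difference was -0.13 (adjusted p = 0.855). GID1A read 61.85, 63.21 and 27.63 and AT2G14900 120.6, 429.3 and 267.3, both overlapping WT as deposited. Their normalized differences were -0.78 and 0.42 (adjusted p = 0.446 and 0.661). As deposited, the GID1A mean went the other way, at 50.9 in BLJ and 45.68 in WT. GID1C, which did not pass the filter here, read 35.09, 177 and 26.31, with 1 array far above the other two. The GAPDH log2 ratio was 4.17, 8.49 and 9.09 on the BLJ arrays and 3.59 and 3.42 on the WT arrays, and its part was not tested.

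In the order of levels over the 13 groups, GID1A, GID1B, SLY2 and AT2G14900 each had steps without overlap. Such steps were not counted over all probe sets, so their number is a description and not a trait of these genes. GID1A had 3: CO2 cells (211 ± 28) stood above UAS-BLJ (152 ± 7), one-cycle WT (126 ± 9) above UAS-MGP (103 ± 8), and UAS-NUC (87.6 ± 13.8) above the BLJ meristems (50.9 ± 20.2). GID1B had 1, between UAS-MGP (155 ± 65) and the WT meristems (53.1 ± 9.4, n = 2). SLY2 had 1, between UAS-BLJ (51.6 ± 12.9) and CO2 cells (19.6 ± 8.2). The top of the GID1B order, CO2 cells (706 ± 117) and UAS-SCR (635 ± 215), overlapped, as did the top of the SLY2 order, the BLJ meristems (189 ± 35) and two-cycle WT (150 ± 35).

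Each member's group means were set against 8743 other named probe sets tested in the one-cycle fit. Most alike to AT2G14900 over the 13 groups were AT1G20380 (Pearson r = 0.955), AT4G13100 (0.948) and AT2G34310 (0.944), and without the WT groups of J0571 cells the same r were 0.705, 0.743 and 0.684 over 11 groups. SLY2 was most like POR (0.965), AT1G69020 (0.959) and AT1G74270 (0.953), and GID1B most like AT5G25930 (0.942), AT4G17900 (0.937) and AT2G43320 (0.936). GID1A was most like AT3G59300 (0.94), TPI (0.911) and AT2G36220 (0.907), and GID1C most like AT2G32090 (0.865), AT2G15580 (0.859) and AT5G40470 (0.856). Over the 8 one-cycle groups of J0571 cells alone, r fell to 0.603, 0.212 and 0.194 for the GID1A set and was 0.818, 0.393 and 0.861 for the GID1C set. It stayed between 0.853 and 0.956 there for the sets of the other 3 members. Among the members themselves, GID1B and SLY2 ran against each other, with r = -0.66 over the 13 groups and -0.69 over the 8 one-cycle groups of J0571 cells, and GID1A and GID1B had r = 0.76 over 13 but 0.13 over 8. The points share protocol, ecotype and array background, so these are descriptions without a p.

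Of the other genes of the pathway, 14 had a probe set of their own and 8 were tested in the one-cycle fit, none of them for biosynthesis, inactivation or a DELLA protein. In one-cycle WT against SHR, 3 of the 8 were higher and 0 lower, a share of calls near the 34.5% of all probe sets. Their median difference was 0.30, beside -0.07 over all probe sets. AT2G31730, a bHLH gene listed as a DELLA target, was 0.86 ± 0.23 higher (adjusted p = 0.00552). XERICO, a RING gene that is another DELLA target, was 0.66 ± 0.19 higher (adjusted p = 0.0106), but not without WT array 2_1 (0.0832). AT1G68570, a transporter that carries gibberellin, was 0.59 ± 0.21 higher (adjusted p = 0.0328), but not without WT array 2_3 (0.176), SHR array 2_2 (0.122) or SHR array 2_3 (0.0599).

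Under UAS-SCR, 4 of the 8 were higher and 2 lower, where 47.7% of all probe sets were called. IQD22 (listed as a DELLA target) was 1.74 ± 0.33 higher (adjusted p = 0.000517) and XERICO 1.04 ± 0.19 higher (adjusted p = 0.000329), and no alternative ended either call. Under UAS-NUC, where 40.7% of all probe sets were called, 2 were higher and 3 lower, and each of these 5 calls was lost in some fit without 1 array. Under UAS-IME (21.1% of probe sets called) the single call was AT2G31730, 1.94 ± 0.23 higher (adjusted p = 4.71e-06), with 116.5 to 200.4 against 19.1 to 32.27 in SHR. The same gene was 1.52 ± 0.23 higher in UAS-BLJ (adjusted p = 8.76e-05), in which AT2G14900 did not differ from SHR by the test. In UAS-MGP, XERICO was lower, with a difference of -1.24 ± 0.19 (adjusted p = 0.000364).

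SPY, an O-fucosyltransferase that modifies DELLA proteins, also differed between the protocols. It was 0.91 ± 0.26 higher in WT in the two-cycle set (adjusted p = 0.037), a call lost without WT array 1 (0.128) or 3 (0.118) or SHR array 1 (0.0598) or 2 (0.0864), and -0.60 in the one-cycle set (adjusted p = 0.0681). The difference between them, 1.51 ± 0.30, was called (adjusted p = 0.0031). IQD22 differed between the protocols in the opposite sense (-1.50 ± 0.50, adjusted p = 0.0332), which was lost without two-cycle SHR array 1 (0.0601), one-cycle WT array 2_1 (0.0727) or 2_3 (0.0719), or one-cycle SHR array 2_1 (0.0688) or 2_2 (0.0836).

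In CO2 cells, IQD22 and XERICO were higher than in both other tissues. IQD22 read 1001 to 1567 there, against 216.7 to 271.9 in J0571 WT (2.35 ± 0.22, adjusted p = 5.82e-05) and 98.72 to 154.4 in the WT meristems (3.29 ± 0.29, adjusted p = 2.32e-05). XERICO read 1179 to 1453, 2.82 ± 0.21 above the meristems (adjusted p = 9.72e-06) and 0.58 ± 0.20 above J0571 WT (adjusted p = 0.035). The latter was lost without WT array 2_2 (0.126) or 2_3 (0.101) or CO2 array 1 (0.0966) or 3 (0.0928). SLY1, the F-box relative of SLY2, was -0.63 ± 0.19 in CO2 cells against J0571 WT (adjusted p = 0.0191), the same direction as SLY2, but was not called without WT array 2_1 (0.0764) or 2_3 (0.0602) or CO2 array 3 (0.0521).

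**Figure D4:**
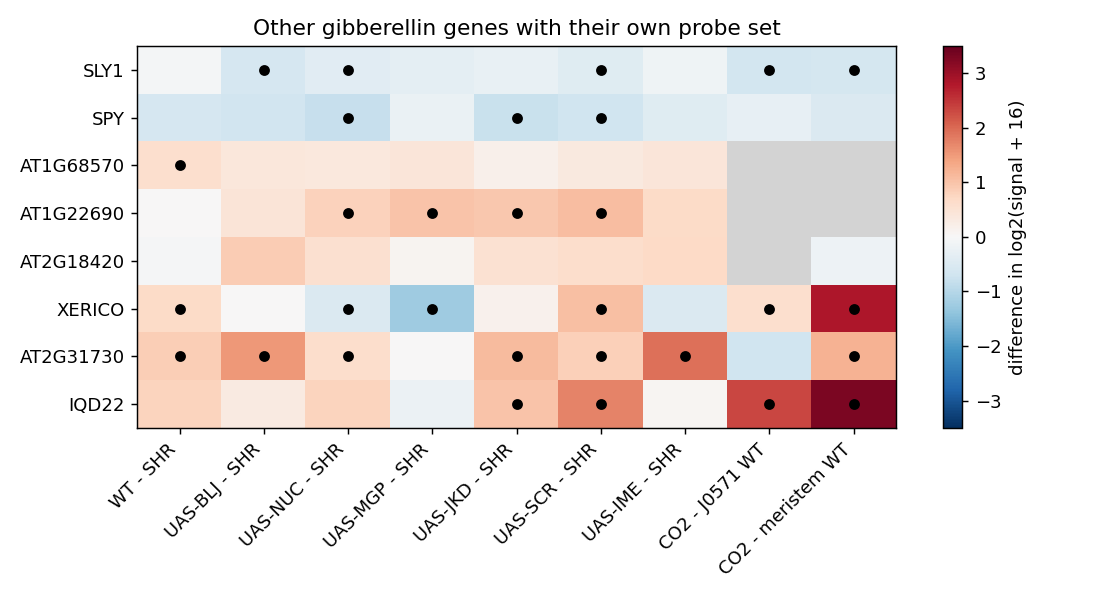
Difference in log2(signal + 16) (colour) of the 8 other gibberellin genes with their own probe set that were tested in the one-cycle fit, by comparison; black dots mark an adjusted p under 0.05 and grey cells were not tested. IQD22 and XERICO are highest in the CO2 comparisons, at 3.29 and 2.82 against the meristems, and AT2G31730 is at 1.94 in UAS-IME and 1.52 in UAS-BLJ.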

How the data were processed

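The deposited values are 1-colour intensity values on a linear scale that the authors made with MAS5, per the submitters' processing notes. No MAS5 version is given in the sources used here. RNA came from a small-sample kit and was labelled by the two-cycle or one-cycle protocol, per the labels' protocols. Each array has a 2% trimmed mean near 250.02. Of 22810 probe sets, 64 controls were left out. The probe annotation gives 13513 probe sets 1 gene, 503 several and 8730 none here, and those with several were named for none. Names follow the TAIR10.1 gene table.

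The members, lists and tests were chosen with earlier results of these data known. Named genes are all members, the listed pathway genes called in WT minus SHR or in the most comparisons (up to 4 per role, by adjusted p), and the 3 probe sets most alike to each member.

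Differences were fitted with limma 3.58.1 (lmFit, eBayes with trend) in R 4.3.3 on log2(intensity + 16), with adjustment over all genes tested. The filter required a signal over the 40th percentile of a fit's values in a number of arrays equal to the smaller compared group. Values stayed as deposited except where the array medians of a fit spanned over 0.5 (log2), which held for the meristems only. One-cycle J0571 comparisons share 1 fit on 24 arrays and the others use their own arrays. On simulated data of the size of UAS-BLJ minus SHR (15148 probe sets), 57% of changes of 1 and 96% of changes of 2 (log2) were recovered. The alternatives were other pseudocounts (64 and 1), no filter, no trend, quantile normalization, the compared groups alone, the replicate number as a block and leaving out each array. Replicate numbers were not taken as pairs: correlations of deviations ran from -0.66 to 0.63 over 19 pairs of groups. In 1 pair, UAS-JKD and UAS-SCR, all were over 0.1, and both enter the F test over the lines. The number of arrays limits the precision. No sequences are shown, as none were in the reference tables used here.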

Additional observations from a re-analysis of the deposited data

Results flagged for a closer look

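For GID1A and SLY2 the difference between WT and SHR itself differed between the two-cycle and the one-cycle set, by the interaction term of limma over 12 arrays. For GID1A it was 1.11 (two-cycle minus one-cycle, log2, adjusted p = 0.0104), WT being above SHR on all arrays of the first set and below it on all arrays of the second. For SLY2 it was 1.38 (adjusted p = 0.0229), with WT above SHR in the first set and overlapping it in the second. The two-cycle SHR arrays, whose GAPDH 3′ to 5′ log2 ratio was 2.51 ± 0.59 (SD, n = 3) against -0.01 ± 0.11 in two-cycle WT, enter both values, and the part of that ratio was not tested.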

How the results depend on the processing

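Over 107 member differences and 1389 alternatives, 1296 stayed the same, 73 lost a call, 19 gained one, 0 turned a called direction and 1 moved. Staying the same means an unchanged side of the threshold. For the untested WT minus SHR values of AT2G14900 it means a kept sign and a shift under the SD within groups. In 33 of the 1296 a difference that was called on neither side changed sign. AT2G14900 was called in 13 differences, and 170 of 174 alternatives kept the call. Most of the 13 set a UAS line or CO2 cells against the J0571 WT level known when the gene was chosen. Others set a line against SHR, whose level entered that choice. The count of kept calls is therefore no support for these differences. The causes of the changes were not tested. AT2G14900 in one-cycle WT minus SHR was 4.94 with a pseudocount of 64. In two-cycle WT minus SHR, the replicate block gave 2657 calls over all probe sets in place of 4122 and left GID1A at 0.89 (adjusted p = 0.0696) and SLY2 at 1.00 (0.0848). There, SLY2 was 1.17 (0.0533) with a pseudocount of 1, 1.00 (0.0771) without the filter and 0.84 (0.0508) after quantile normalization, and GID1A 0.89 (0.0525) without the filter. With the compared groups alone, calls went from 1756 to 3456 in UAS-BLJ and from 6423 to 3494 in UAS-NUC, SLY2 was -0.78 (0.0119) in UAS-BLJ and -0.77 (0.0178) in UAS-IME, GID1A -0.47 (0.0721) in UAS-MGP, AT2G14900 0.66 (0.0823) in UAS-SCR, and the F of GID1C 2.85 (0.073). Over UAS lines the comparisons with WT gave 1607 calls in place of 3754 in UAS-NUC and 3692 in place of 5772 in UAS-SCR, and those of UAS-NUC, UAS-MGP and UAS-IME with the mean of the other two 1037, 1837 and 720 in place of 2798, 3631 and 1221. Quantile normalization put GID1C at -0.80 (0.00552) in the line labelled UAS-JKD and SLY2 at -0.81 (0.045) in UAS-SCR, and no filter GID1A at -0.47 (0.0542) in UAS-MGP. The F of SLY2 was 3.09 (0.0456) with a pseudocount of 64 and that of GID1C 3.13 (0.0653) with the block. GID1C in CO2 cells minus J0571 WT was 0.84 (0.0595) with a pseudocount of 1 and 0.62 (0.0822) without the filter. In the meristems, 423 calls became 155 without a trend, 2140 as deposited and 2849 with the block.

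Leaving out 1 array at a time, with the lone or paired arrays taken to vary like the rest, gave these ranges. In WT minus SHR, GID1B was 0.69 to 1.08 in the one-cycle set and 0.11 to 1.06 in the two-cycle set, where GID1A was 0.73 to 1.07, SLY2 0.80 to 1.30 and calls 2058 to 3959. The protocol difference of SLY2 was 1.18 to 1.67. Against SHR, UAS-NUC had 3496 to 8467 calls, GID1B 0.42 to 0.91 and SLY2 -1.03 to -0.49. UAS-MGP had 790 to 1066 calls and GID1A -0.52 to -0.42. GID1B was 0.27 to 0.91 in the line labelled UAS-JKD. UAS-SCR had 4503 to 7671 calls, SLY2 -0.95 to -0.19 and AT2G14900 0.40 to 0.84, and UAS-IME 1896 to 2938 calls. UAS-NUC, UAS-MGP and UAS-IME minus the mean of the other two had 788 to 6923, 1391 to 6693 and 713 to 1332 calls. The F was 1.95 to 4.09 for GID1C and 1.54 to 4.36 for SLY2. The meristems had 0 to 2425 calls. In CO2 cells, GID1B was 0.51 to 0.78 and GID1C 0.47 to 0.78 against J0571 WT, and GID1C 0.92 to 1.82 against the meristems.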
